A study of Homo sapiens with 6 samples.

Results

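The ZNF genes, the numbered zinc finger genes of the human genome, were examined in NB4 cells, a human promyelocytic leukemia cell line, after 3 days with DMSO (the solvent) or with Tan I (Tanshinone I) at 10 μM. RNA-seq was done on 3 libraries per group, and all 6 came from the same cell line. Of the 18625 genes listed, 421 carried a ZNF number, and 152 of these had a mean normalized count of at least 300 over the 6 libraries and form the set described here. A normalized count is the number of reads on a gene divided by 1 size factor for the library. The members were selected on that mean, so their abundance is given as a description. The rule did not use the treatment labels, but a gene near 300 could pass or miss it through the values of 1 group. The comparison asks which of these genes differed in RNA level after Tan I, a compound that the study examined for its effect on leukemic blood cells and on EZH2, a histone methyltransferase.

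Most ZNF genes encode proteins with C2H2 zinc fingers, in which a pair of cysteines and a pair of histidines hold a zinc ion so that the finger can touch DNA. Many also carry a KRAB box, which recruits TRIM28 (KAP1). TRIM28 in turn brings the histone H3K9 methyltransferase SETDB1 and HP1 proteins, and this silences bound DNA, transposable elements above all. The family expanded by local duplication, and large clusters of these genes lie on chromosome 19. ZNF genes without a KRAB box include transcriptional activators, subunits of corepressor complexes and proteins that bind RNA or ribosomes.

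The sequences just upstream of the start site are shown first for the members on which the comparison turns, namely the called genes with an entry and the strongest non-overlapping change in either direction among the uncalled ones. RefSeq (GRCh38.p14) listed a start site for 132 of the 152 members. The first 3 windows lie on the + strand, at chr11:9460862-9461011 for ZNF143, chr12:123973065-123973214 for ZNF664 and chr19:53394999-53395148 for ZNF765, and ZNF814 lies on the - strand at chr19:57889038-57889187. Each line gives 150 bases, 5′ to 3′, that end next to the RefSeq start site, with capitals marking matches to the motifs spelled out after them. ZNF512B, the other called gene, had no entry.
ZNF143: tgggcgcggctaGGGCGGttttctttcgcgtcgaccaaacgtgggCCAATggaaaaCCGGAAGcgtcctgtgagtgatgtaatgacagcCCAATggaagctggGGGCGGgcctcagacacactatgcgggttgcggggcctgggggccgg
ZNF664: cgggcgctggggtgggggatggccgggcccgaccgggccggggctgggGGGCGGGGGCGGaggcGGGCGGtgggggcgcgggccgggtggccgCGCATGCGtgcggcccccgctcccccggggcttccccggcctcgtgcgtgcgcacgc
ZNF765: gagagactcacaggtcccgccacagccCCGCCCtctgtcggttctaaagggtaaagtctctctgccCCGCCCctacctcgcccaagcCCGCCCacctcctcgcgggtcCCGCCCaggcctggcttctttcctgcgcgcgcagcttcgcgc
ZNF814: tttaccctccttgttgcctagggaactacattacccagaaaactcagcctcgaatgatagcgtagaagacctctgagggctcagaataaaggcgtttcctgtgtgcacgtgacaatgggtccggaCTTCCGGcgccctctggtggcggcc
The windows differ in make-up. That of ZNF143 holds 5 matches, to the GC box, the CCAAT box and the ETS motif, and that of ZNF765 holds 4 GC boxes and no other match. The ZNF664 window holds GC boxes and an NRF1 match, and the ZNF814 window holds 1 ETS match. In GENCODE release 44 the genes ZNF143, ZNF664 and ZNF765 start further upstream than in RefSeq, so these windows lie inside the GENCODE span of the gene, and that of ZNF814 overlaps its span in part.

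Over the 300 bases from 250 before to 50 after the start site, both strands, the members had more matches to some promoter motifs than the 27305 genes of the RefSeq table. The GC box (GGGCGG, bound by SP factors) was found in 66.7% of member windows and 44.6% of all windows. The ETS motif (CCGGAAG) was found in 38.6% and 10.7%, and within the members in 47.7% of 65 windows of KRAB genes and 29.9% of 67 windows of genes without a KRAB box. The CCAAT box (CCAAT, bound by NF-Y) was found in 60.0% of KRAB members, 31.3% of the others and 35.7% of all windows. Rarer matches were the YY1 motif (ATGGCGG), in 11.4% of members and 5.72% of all windows, and the NRF1 motif (CGCATGCG), in 5.30% and 2.19%. A part of the ZNF143 motif (ACTACAA) was found in 5.30% of member windows and 2.95% of all windows. Member windows were also richer in G and C, with a median of 63.0% against 58.3%, and in the pair CG, with a median count of 23.5 against 14. The members were selected for abundance, but the 27305 RefSeq genes were not. Whether these differences are particular to ZNF genes or shared by other well expressed genes was not tested. No motif as spelled contains another, on either strand, but their matches can overlap in a window. A match is a run of letters and was not tested as a binding site.

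**Figure D1:**
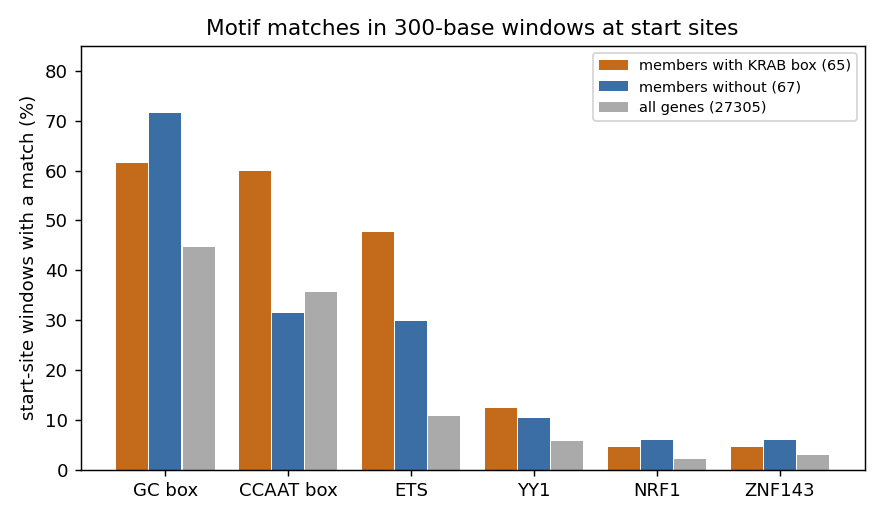
Share of 300-base start-site windows (%, bars from 0) that hold each motif on either strand, for members with a KRAB box, members without one and all genes of the RefSeq table. The CCAAT box stands at 60.0% in KRAB members and 31.3% in the others, and the ETS motif is above its share of all windows (10.7%) in both.

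By annotation, 151 of the 152 members were protein-coding and 1, ZNF767P, was a transcribed pseudogene. A KRAB box was found in 72 members (47.4%) and was not found in 80. It was more frequent among the ZNF genes of lower abundance, with 174 of the 250 genes at a mean of 10 to 300 (69.6%). The proteins held a median of 9 C2H2 fingers by pattern search, up to 36 in ZNF142, and 62 had at least 10. KRAB members had a median of 11 fingers and the others of 7. The pattern found fewer than 2 fingers in 10 members, among them ZNF330, ZNF598 and ZNF609. On chromosome 19 lay 45 members (29.6%), against 6.90% of the other genes tested, and 32 of the 45 had a KRAB box. Exons of 54 members overlapped a gene on the opposite strand and those of 37 a gene on the same strand. The strand setting of the counting is not given in the sources used here, so the reads of such pairs may not be separable. ZNF genes share related sequence, and reads that mapped to several places were removed by the authors, so counts of close copies are uncertain.

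The members together held 0.678% of all normalized counts. Member means ran from 310 to 9789, with a median of 742, and a single library held 107 to 13159 reads on a member. At the threshold, ZNF767P (310), ZNF385A (312) and ZNF761 (322) stood just inside, and ZNF500 (297), ZNF271P (295) and ZNF670 (294) just outside. The 6 highest means belonged to ZNF207 (9789), ZNF266 (5215), ZNF121 (4896), ZNF692 (4840), ZNF638 (4665) and ZNF445 (4289). ZNF207 (BUGZ) binds BUB3 at the spindle, ZNF638 binds RNA and the HUSH silencing complex, and ZNF445 is a KRAB protein that protects imprinted DNA methylation. Per kilobase of the canonical transcript the order changed, with ZNF692 at 2492 normalized counts per kilobase, ZNF266 at 1471 and ZNF330 at 987. On that scale ZNF207 stood at 713 and ZNF445, the member with the longest transcript (18314 bases), at 234.

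The 6 libraries held 21502760 to 31679138 reads on the listed genes, all 3 DMSO libraries above the 3 Tan I libraries. The leading component of variation among the libraries (first principal component) took 70.8% of the variance and did not follow the treatment, with DMSO scores of -48.0, 41.1 and -26.7 and Tan I scores of -46.8, 8.65 and 71.6. Tan I replicate 3 and DMSO replicate 2 lay at one end, and replicate 1 of both groups at the other. Of the promyelocyte genes, MPO, AZU1, PRTN3, CTSG and CD33 were all measured, at means from 1554 (CTSG) to 49595 (MPO), and ELANE was not analysed here. MPO (myeloperoxidase) and CTSG (cathepsin G) were called lower after Tan I, with MPO at 62588 ± 1950 normalized counts under DMSO and 36602 ± 3112 under Tan I (SD, n = 3). Markers of other cells were listed for 7 of 12, at means from 12 (CD3E) to 342 (CD3D), and 0 were called.

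Few ZNF members differed after Tan I. ZNF143 rose and ZNF512B and ZNF765 fell by the unadjusted rule, and no member passed after adjustment. Called genes are those whose limma p, before adjustment, is 0.05 or less and whose fold change on the log2 scale is 0.25 or more in either direction. By this rule 3 of the 152 members (1.97%) were called, against 2.42% of all 16887 genes tested. One direction at a time, 1 member rose against 1.32% of all genes, and 2 fell against 1.1%. The calls over all genes split into 223 higher and 185 lower, and into 188 and 250 once all libraries had equal totals. With Benjamini-Hochberg adjustment over all genes, 0 members and 0% of all genes passed an adjusted p of 0.05, and the smallest adjusted p in limma was 0.999 among members and 0.118 among all genes. An unadjusted p of at most 0.05 was reached by 3 members in limma and edgeR and by 5 in DESeq2. The adjusted p of DESeq2 passed for 0 members and for 16 of all genes. The share of members called was thus near the background. The labels do not say whether replicates came from separate cultures, so the p-values measure the spread between these libraries, which may be technical.

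ZNF143, an activator that binds promoters and chromatin loop anchors, lies at chr11:9460319-9528524 on the + strand (GRCh38, ENSG00000166478). Its normalized counts were 687, 817 and 704 in DMSO replicates 1, 2 and 3, and 796, 959 and 1104 in Tan I. Tan I replicate 1 fell below DMSO replicate 2, so the groups overlapped. On the log2 scale Tan I exceeded DMSO by 0.36 (SE 0.15, limma p before adjustment 0.0485), and the exact permutation p was 0.2. This call was lost in limma without the variance trend (p before adjustment 0.0757) and with a replicate block (0.0511). ZNF76, its closest relative in the genome, did not pass the test (log2 fold change -0.12).

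ZNF512B, a zinc finger protein that binds the NuRD corepressor, lies at chr20:63956704-63969930 on the - strand (ENSG00000196700). Its normalized counts were 1052, 904 and 1072 in DMSO and 843, 801 and 724 in Tan I, with no overlap between the groups. The fitted log2 difference was -0.35 (SE 0.13, limma p before adjustment 0.0243, exact permutation p of 0.1, which is the smallest that 3 against 3 allows). The antisense gene UCKL1-AS1 overlaps its exons.

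ZNF765, a KRAB gene with 8 fingers in a chromosome 19 cluster, lies at chr19:53389793-53430413 on the + strand (ENSG00000196417). It had 490, 469 and 509 normalized counts in DMSO and 405, 382 and 396 in Tan I. These groups were the most tightly spaced of the called members, at 489 ± 20.2 and 394 ± 11.7 (SD, n = 3). Tan I lay below DMSO by a log2 fold change of -0.31 (SE 0.12, limma p before adjustment 0.0306). The 3 calls held without DMSO replicate 2 (3 members called, against 2.76% of all genes), but not without most other single libraries. None of the 152 members was called without DMSO replicate 1, DMSO replicate 3 or Tan I replicate 2, where 1.07%, 1.19% and 0.947% of all genes tested were. Without Tan I replicate 3 only ZNF789 was called (0.658% of members), against 1.6% of all genes. Without Tan I replicate 1, 19 members were called (12.5%), against 8.86% of all genes tested, 14 of them lower and the same 3 among them.

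**Figure D2:**
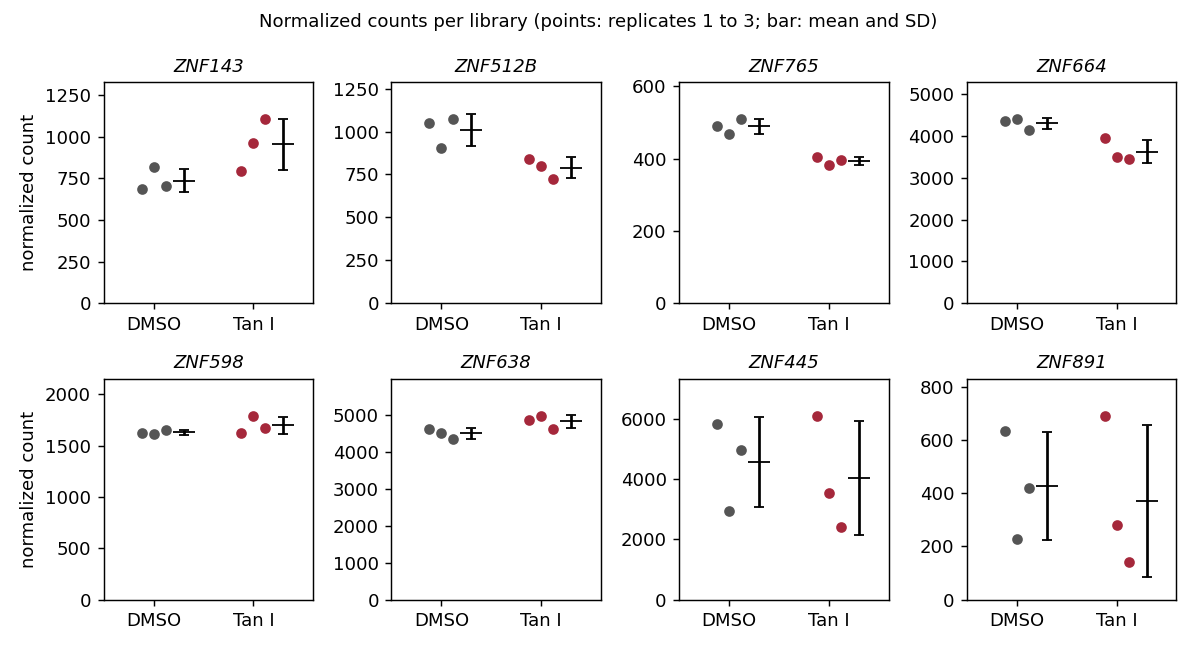
Normalized counts (linear axis from 0) of 8 ZNF genes in the 3 DMSO and 3 Tan I libraries, points for replicates 1 to 3 from left to right, bars for mean and SD. ZNF512B, ZNF765 and ZNF664 do not overlap between groups, whereas ZNF445 and ZNF891 spread more within each group than between them.

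In 11 members (7.24%) the groups did not overlap, 4 higher and 7 lower after Tan I. Of all genes tested, 3.92% were higher and 3.97% lower in this sense, so the members again stood near the background. Of these 11, 9 were KRAB genes (9 of 72, against 2 of 80 without a KRAB box), a difference that was not tested. Besides ZNF512B and ZNF765, the lower ones were ZNF664, ZNF558, ZNF136, ZNF251 and ZNF316, and the higher ones ZNF814, ZNF726, ZNF250 and ZNF785. They are named because their values were seen not to overlap. ZNF664 had 4369, 4406 and 4155 normalized counts in DMSO and 3948, 3488 and 3449 in Tan I, which gave -0.25 on the log2 scale (limma p before adjustment 0.0527). It shares exons with RFLNA on the same strand and with CCDC92 on the opposite one. ZNF814 had 335, 348 and 330 normalized counts in DMSO and 409, 433 and 356 in Tan I, which gave 0.24 on the log2 scale (limma p before adjustment 0.115). ZNF726 had 551, 527 and 527 in DMSO and 555, 625 and 688 in Tan I, and did not pass the test.

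The fold changes of the members were small. They ran from -0.45 (ZNF710) to 0.36 (ZNF143) on the log2 scale, with quartiles of -0.17 and 0.06. The 95% interval lay within 1 log2 unit of 0 in 140 of the 152 members and within 0.5 in 68. For those 140, a change of 2-fold or more lay outside the interval. After ZNF710 the lowest fitted values belonged to ZNF783 (-0.42), ZNF770 (-0.40), ZNF891 (-0.37) and ZNF561 (-0.37). After ZNF143 the highest belonged to ZNF622 (0.32), ZNF580 (0.32), ZNF511 (0.30) and ZNF414 (0.26). Apart from ZNF143, none of these passed the test. In alternative fits, ZNF561 was called under quantile normalization, rescaled totals and DESeq2, and ZNF710 with a replicate block. Both were also called with the principal component as a covariate and without Tan I replicate 1, where 8.86% of all genes were. ZNF710 illustrates the spread, with 767, 570 and 681 normalized counts in DMSO and 690, 454 and 371 in Tan I.

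**Figure D3:**
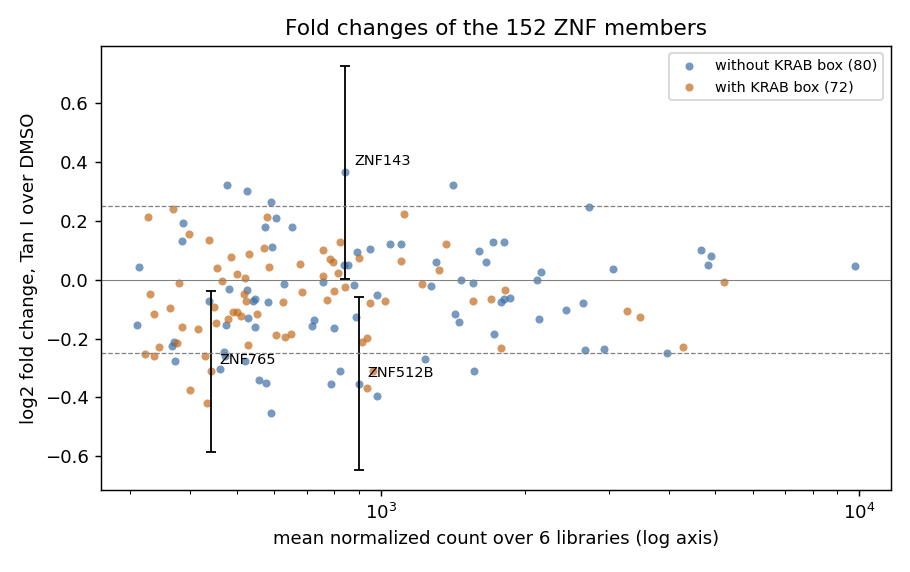
Log2 fold change (Tan I over DMSO) of each ZNF member against its mean normalized count (log axis), coloured by KRAB box, with 95% intervals on the 3 called genes and dashed lines at 0.25 and -0.25. Points lie between -0.45 and 0.36, more of them below 0 than above.

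The members leaned to the lower side. Their median log2 fold change was -0.07, with 98 lower and 54 higher (64.5% lower), against a median of -0.0016 and 50.3% lower over all genes tested. The 8562 other genes with a mean of at least 300 had a median of 0.03 and 43.4% lower. Among the 250 ZNF genes with a mean of 10 to 300 the median was -0.15 and 76% were lower. Of these 250, 0 were called higher, against 1.32% of all genes tested, and 6 were called lower (2.4%), against 1.1%. In either direction 2.42% of all genes were called. The median was -0.07 in KRAB members and -0.06 in the others, and -0.02 in members on chromosome 19 and -0.07 elsewhere. Related families of the same abundance gave -0.03 for 22 ZBTB genes and -0.15 for 12 ZFP, ZSCAN and ZKSCAN genes. The size of the lean varied with the library left out, and its sign turned only without Tan I replicate 3. Without Tan I replicate 3 the member median was 0.02, with 82 higher and 70 lower. Without DMSO replicate 1 it was -0.03, with 70 higher and 82 lower, and without Tan I replicate 1 it was -0.11. The median was -0.08 without DMSO replicate 2, and -0.05 without DMSO replicate 3 or without Tan I replicate 2. After scaling all libraries to equal totals it was -0.12, where the median of all genes was itself -0.06.

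Library by library, the members moved against the bulk of the other genes. The median deviation of a member from its own 6-library mean was 0.07, -0.04 and 0.02 on the log2 scale in DMSO replicates 1, 2 and 3, and 0.10, -0.03 and -0.16 in Tan I. The other genes of the same abundance had -0.06, 0.04 and -0.02 in DMSO and -0.04, 0.02 and 0.07 in Tan I, of opposite sign in each library. Those with a transcript of at least 6000 bases had 0.19, -0.13 and 0.07 in DMSO and 0.19, -0.05 and -0.27 in Tan I. These had the members' sign in each library. The 22 ZBTB genes had 0.21, -0.19 and 0.06, and 0.18, 0.04 and -0.30, of the members' sign except in Tan I replicate 2. Of the 152 members, 59 had their lowest value in Tan I replicate 3 and 44 their highest in Tan I replicate 1. The summed normalized count of the members was 184545, 163639 and 175819 in DMSO and 186374, 168686 and 155572 in Tan I, so the groups overlapped. Fewer transcripts per cell and a different share of cells cannot be told apart in bulk RNA.

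**Figure D4:**
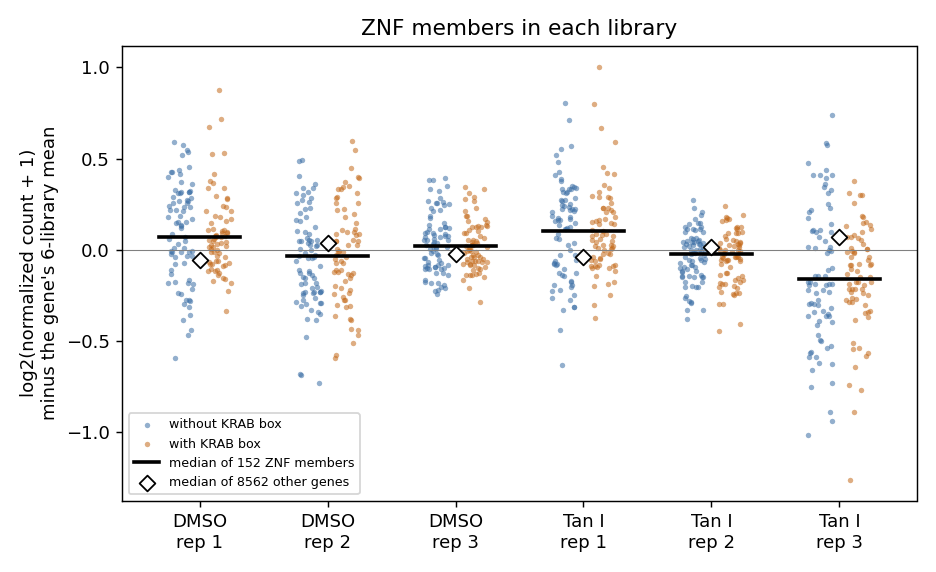
Each ZNF member in each library as log2(normalized count + 1) minus its 6-library mean, with the member median (line) and the median of the other genes with a mean of at least 300 (diamond). Tan I replicate 3 has the lowest member median (-0.16), and Tan I replicate 1 the highest (0.10).

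Many members varied over the libraries with the leading component. Its score correlated with the gene across the 6 libraries at -0.8 or lower in 63 members (41.4%). The correlation was 0.8 or higher in 25 (16.4%). In the other genes of that abundance these shares were 24.3% and 38%. They were 63.6% and 9.09% in the 22 ZBTB genes, and 33.3% and 8.33% in the 12 ZFP, ZSCAN and ZKSCAN genes. Other genes of that abundance with a transcript of at least 6000 bases had 63.6% and 7.87%. The members with the widest range over the libraries were ZNF891 (2.27 log2 units from lowest to highest), ZNF526 (1.83) and ZNF783 (1.61). ZNF891 had 634, 227 and 418 normalized counts in DMSO and 692, 279 and 143 in Tan I, so it was high in replicate 1 of both groups and low in DMSO replicate 2 and Tan I replicate 3. ZNF445 went the same way, with 5810, 2923 and 4944 in DMSO and 6099, 3548 and 2411 in Tan I. ZNF622, a ribosome biogenesis factor with a short transcript, went the other way, with 894, 1704 and 1157 in DMSO and 1124, 1351 and 2258 in Tan I. The steadiest members were ZNF740 (0.11 log2 units, 811 to 873 normalized counts), ZNF598 (0.15) and ZNF175 (0.17).

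Transcript length moved with this pattern. The length split was chosen after the values were seen. The canonical transcripts of the members were longer than those of other genes of that abundance (median 4550.5 against 3353 bases) and lower in GC (42.8% against 47.9%). Across genes, which share the 6 libraries and are not independent replicates, the rank correlation of length with the principal component correlation was -0.58 over 152 members and -0.62 over 8553 other genes. With the fold change it was -0.38 and -0.49. The 37 members under 3000 bases had a median log2 fold change of 0.05 (22 higher, 15 lower), where other genes of that length had 0.10. For 3000 to 6000 bases the median was -0.07 in 67 members and -0.0078 in other genes, and from 6000 bases it was -0.12 in 48 members (11 higher, 37 lower) and -0.08 in other genes. In Tan I replicate 3 the median deviation was 0.14 in the short members, -0.18 in the middle ones and -0.27 in the long ones, and 0.29, -0.03 and -0.27 in the other genes. Whether length or the library component accounts for the lean of the members was not tested.

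**Figure D5:**
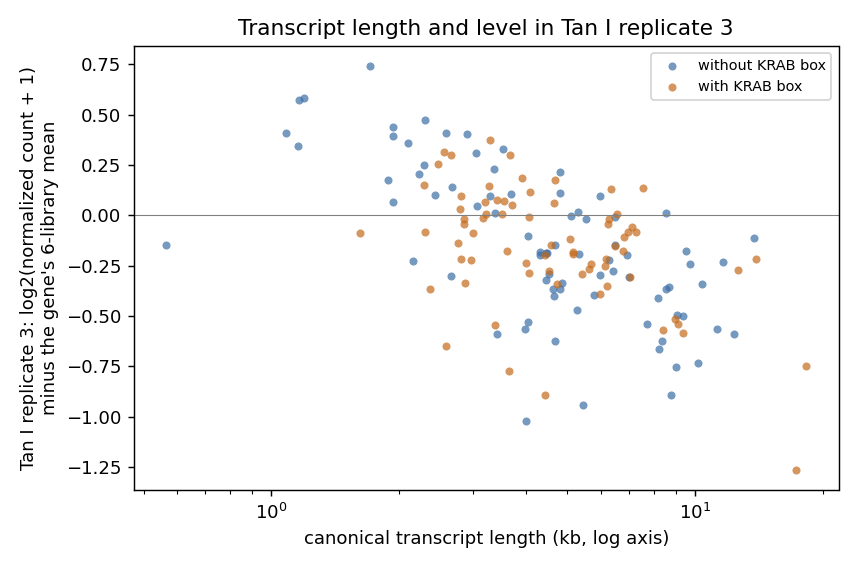
Deviation of each ZNF member in Tan I replicate 3 from its 6-library mean (log2) against its canonical transcript length in kilobases (log axis). Short members lie mostly above 0 and long ones mostly below, with ZNF445 and ZNF891 at the far right.

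With the component score as a covariate in limma, 12 members were called (7.89%, 4 higher and 8 lower), against 8.86% of all genes tested, and the member median was -0.0060. The same 3 genes were among the 12, but the component was computed from these same 6 libraries, so their return is no independent support. Over all genes the calls rose from 408 to 1496. No member passed the adjusted p of 0.05 in that fit, where 195 of all genes did.

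By role, the list medians ran from -0.16 to 0.05 on the log2 scale, and differences between lists were not tested. The 11 members with roles in RNA or other processes outside classical DNA binding had a median log2 fold change of 0.05 and 0 called. ZNF207, the most abundant, had 10663, 8044 and 10282 normalized counts in DMSO and 10537, 10188 and 9022 in Tan I, a log2 fold change of 0.05 that turned negative under quantile normalization (-0.04) and rescaled totals (-0.01). ZNF638 gave 0.10, ZNF451, a SUMO E3 ligase, 0.13 and ZNF598, which ubiquitinates collided ribosomes, 0.06, none past the test.

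Members that sit in chromatin or corepressor complexes were measured for 11 genes, and their median was -0.16 on the log2 scale. Of these, 10 had a fitted fold change below 0 and 1, ZNF512B, was called (9.09%, against 2.42% of all genes tested). Their transcripts were long (median 8187 bases), and 8 of the 11 had their lowest value in Tan I replicate 3. There were 1601 other genes with a mean of at least 300 and a transcript of at least 6000 bases. Of these, 73.0% were lower after Tan I, and 990 had their lowest value in that library. ZNF609, a partner of the Integrator complex, gave -0.24 on the log2 scale (SE 0.36), and ZNF518A, a partner of the H3K9 methyltransferase G9a, -0.24 (SE 0.29). Both followed the library component (r of -0.999 and -0.995 over the 6 libraries). ZNF644, another partner of G9a, was the exception in sign at 0.12. The list was small and no test was made over it.

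Of 8 promoter-binding members, ZNF143 alone was called (12.5%, against 2.42% of all genes tested), and the median was 0.01. ZNF384, a fusion partner in acute leukemia, had 875 ± 114 normalized counts under DMSO and 698 ± 188 under Tan I (SD, n = 3), a log2 fold change of -0.35, and ZNF692 at 4740 ± 304 and 4940 ± 771 (0.05, turning to -0.022 under quantile normalization), and neither passed the test. ZNF24 stood at 2124 ± 376 in DMSO and 2118 ± 322 in Tan I.

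The 6 KRAB members known to bind retroelements or their remnants, among them ZNF91, ZNF33A, ZNF274 and ZNF84, had a median of -0.02 and 0 called. All 12 measured genes of that list, members or not, had a median of -0.05 (4 higher, 8 lower) and 0 called. The 2 with the smallest p were too low in abundance to be members. They were ZNF611 (mean 46, log2 fold change -0.54, limma p before adjustment 0.105) and ZNF10 (mean 60, -0.47, 0.110). ZNF91, which silences SVA and L1 elements, stood at 850 ± 151 in DMSO and 839 ± 181 in Tan I. ZNF33A stood at 1221 ± 95.3 and 1220 ± 233, and ZNF84 at 974 ± 28.1 and 924 ± 74.1.

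The cofactors of KRAB proteins were all measured, 21 of 21, and 0 were called, with a median log2 fold change of -0.03. TRIM28, the KRAB corepressor, had 11276, 14623 and 12825 normalized counts in DMSO and 10824, 13552 and 16358 in Tan I (log2 fold change 0.06). Its direction turned under quantile normalization (-0.03). SETDB1, which methylates H3K9 at the bound sites, had 2394, 1478 and 2211 in DMSO and 2166, 1952 and 1334 in Tan I (-0.16). TRIM28 was highest and SETDB1 lowest in Tan I replicate 3, and in both genes the groups overlapped. MORC2, a partner of the HUSH complex, had 1508 ± 135 normalized counts under DMSO and 1305 ± 140 under Tan I (SD, n = 3), a log2 fold change of -0.21 that did not pass the test (limma p before adjustment 0.146).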

How the data were processed

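RNA-seq was performed on NB4 cells after 3 days with DMSO or Tan I, with 3 libraries per group. Groups were taken from the sample titles. Per the study's methods, STAR was used by the authors for alignment of read pairs (GRCh38), multiply mapping reads were dropped, featureCounts gave the counts per gene, and DESeq2 was applied to them. Tool versions and the annotation release are not given in the sources used here. The deposited signal values are read counts divided by 1 size factor per library, in normalized counts. In every library 100% of values came out as whole reads within 0.01 reads. The table also holds the authors' own fold changes and p-values, which were not used. No other per-sample column was present.

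limma 3.58.1 (R 4.3.3, eBayes with trend) was run on log2(normalized count + 1) on 16887 genes whose 6-library mean reached 10, with treatment as the only term and Benjamini-Hochberg adjustment over all of them. Fold changes are on this scale. Single genes were also compared by exact two-sided permutation. edgeR 4.0.16 and DESeq2 1.42.0 on the recovered reads, other scalings, filters and pseudocounts, a replicate block, a principal component covariate and omission of each library were run as alternatives. edgeR on the recovered reads called 3 members and 409 genes. The limma script was tested on simulated data.

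Transcript length and GC, exon overlap, C2H2 fingers (by pattern) and KRAB boxes (HMMER 3.4 profile built from 194 matching windows, E at most 1e-05) came from GENCODE 44, which held 18550 of the 18625 identifiers. Start-site sequences came from RefSeq. The members and gene lists were chosen with earlier results of these data known. Genes were named by rule: the 6 highest means, the called members, the 5 largest rises and falls, the 3 nearest on either side of the threshold, the 2 smallest p and 2 highest means of each role list, the 3 widest and 3 narrowest ranges, TRIM28 and SETDB1. Any other was named after its values were seen. A cofactor gene that the rule names is not reported here. Mitochondrially encoded genes, listed as a check, gave 0 calls of 13.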

Additional observations from a re-analysis of the deposited data

How the results depend on the processing

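The count of 3 members called stayed within 1.5 times under both other pseudocounts, both other filters, rescaled totals, eBayes without the trend, edgeR and DESeq2. With eBayes without the trend 1.32% of members were called, against 3.29% of all genes. In the rest of these settings 1.97% to 2.63% of members were called, against 2.39% to 2.59% of all genes. Without the trend ZNF143, the only higher call, was lost. The count was 5 under quantile normalization (2.23% of all genes called) and 12 with the principal component covariate (8.86%). It was 0 of 47 with a membership mean of 1000, against 2.42% of all genes. With one of 100 it was 5 in a larger set of genes, and that share was not computed. Leaving out single libraries gave 0 to 19, while the share of all genes called ran from 0.947% to 8.86%. Members whose groups did not overlap numbered 11 (7.24%, against 7.89% of all genes), but 7 with rescaled totals. They numbered 3 of 47 (6.38%) with a membership mean of 1000. With one of 100 they numbered 20 in the larger set, again without a computed share. The member median log2 fold change ran from -0.12 with rescaled totals to 0.02 without Tan I replicate 3. The deviations of same-numbered libraries from their group means correlated at 0.75, -0.09 and -0.45 for replicates 1, 2 and 3. The leading component held 70.8% of the variance, so these values cannot tell whether same-numbered libraries were paired. A replicate block gave 2 called members, of which only ZNF512B was among the 3, with 348 of all genes called against 408.

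Some fold changes turned sign, including those of ZNF891 (-0.37 in the main fit), ZNF609 (-0.24) and ZNF445 (-0.23). With the component covariate they were 0.072 in CBX5, 0.032 in DNMT1, -0.041 in TRIM28, 0.094 in ZNF24, 0.067 in ZNF33A, -0.0081 in ZNF385A, 0.022 in ZNF445, 0.18 in ZNF526, 0.0012 in ZNF609 and 0.023 in ZNF891. Quantile normalization gave -0.028 in TRIM28, -0.035 in ZNF207 and -0.022 in ZNF692, and rescaled totals gave -0.015 in ZNF207, -0.016 in ZNF385A, -0.010 in ZNF692 and -0.0096 in ZNF740. Without 1 library the values ran from -0.44 to 0.14 in CBX5, from -0.18 to 0.065 in DNMT1, from -0.37 to 0.051 in SETDB1, from -0.084 to 0.21 in TRIM28, from -0.043 to 0.25 in ZNF121, from -0.082 to 0.12 in ZNF207, from -0.12 to 0.13 in ZNF24, from -0.089 to 0.078 in ZNF266, from -0.11 to 0.0016 in ZNF271P. They also ran from -0.16 to 0.11 in ZNF33A, from -0.029 to 0.15 in ZNF385A, from -0.58 to 0.087 in ZNF445, from -0.11 to 0.043 in ZNF500, from -0.51 to 0.019 in ZNF518A, from -0.60 to 0.32 in ZNF526, from -0.54 to 0.077 in ZNF609, from -0.054 to 0.17 in ZNF692, from -0.97 to 0.16 in ZNF891. The cause was not tested. With 3 libraries per group the median standard error of a member was 0.17 on the log2 scale, which limits the changes that could be detected.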
